A study of Mus musculus with 11 samples.

Results

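The genotype difference of mouse myoblasts at low oxygen is described here, as 3 libraries of Bmal1-/- cells against 3 libraries of wild-type cells, each after 6 h in hypoxia. These 6 libraries were chosen by their labels from the 11 of the study, and every gene with a normalized read count of at least 10 in 2 or more of the 11 libraries was compared. That left 14729 of the 22104 gene identifiers in the deposited table. Myoblasts are the dividing precursors of muscle fibres. They were primary cultures from the tibialis anterior of young adult C57BL/6 mice, about 8 weeks old, wild-type or Bmal1-/-, and all grew in serum with basic fibroblast growth factor. Both groups described here spent 6 h at 1% oxygen. The other 5 libraries, 2 wild-type and 3 Bmal1-/-, spent 6 h at 21% oxygen (normoxia) and serve as a second look at the same genotype difference. The labels name the genotype only as Bmal1-/-, without the deleted exons, the number of mice or which cultures gave which library. The p-values therefore rest on differences among libraries that may be technical repeats.

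BMAL1, encoded by the gene listed as Arntl, pairs with CLOCK and binds E-box sequences (CACGTG) to switch on the genes of the circadian clock. Its targets include the period and cryptochrome repressors, which feed back on CLOCK and BMAL1, and the REV-ERB nuclear receptors, which repress genes that carry the letters AGGTCA, Arntl and Nfil3 among them. BMAL1 belongs to the same protein family as the hypoxia-inducible factors (HIF), the oxygen-regulated transcription factors that drive glycolysis and vessel growth. In muscle, BMAL1 is known for its place in myogenic differentiation and in the daily rhythm of metabolism.

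Recovered reads totalled 23027613 to 33613328 in the 6 hypoxia libraries, and the median SE of a log2 difference was 0.0987. On the log2 scale, libraries of the same genotype correlated at 0.986 to 0.991 across genes and libraries of different genotype at 0.9801 to 0.9835, a description over genes. A principal component with 38.5% of the variance set the genotypes of the 6 libraries apart, and the next (19.2%) spread the libraries within each genotype. Myod1, which defines the myoblast lineage, was present at 7793 to 8851 normalized counts in wild-type and 8352 to 8977 in knockout, and Pax7 at 1307 to 1595 and 1358 to 1549. Cadherin 5 (Cdh5, endothelium), Sox10 (Schwann cells) and Adipoq (adipocytes) were at 9.08 or lower in each hypoxia library. Other markers of these cell types held reads. The list sums were 197 to 210 in wild-type and 147 to 174 in knockout for endothelium. They were 651 to 700 and 727 to 767 for Schwann cells, and 567 to 584 and 523 to 612 for adipocytes. The sums of the smooth muscle and fibroblast marker lists were larger (values below), and the smooth muscle list holds genes that myoblasts also express.

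Arntl (ENSMUSG00000055116) lies on the plus strand of chromosome 7, from 113207465 to 113314126 in GRCm38. In hypoxia it stood at 325, 328 and 322 normalized counts in wild-type libraries and at 128, 134 and 128 in Bmal1-/- libraries. The groups did not overlap, and transcript reads from the locus persisted in the knockout cells. The log2 difference was -1.31 (SE 0.09, adjusted p = 4.96e-07 by limma with Benjamini-Hochberg adjustment over all tested genes, the test used throughout). The deposited values are per gene, so they do not show which exons the remaining reads cover. Clock, the partner of BMAL1, stood at 2337 to 2543 in wild-type and 2641 to 2770 in knockout, and its difference of 0.14 did not pass (adjusted p = 0.0737).

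Of the 21 clock genes tested, 10 passed the test at an adjusted p under 0.05, 5 higher and 5 lower in knockout. Arntl, the targeted gene, is counted among the 21 and among the lower. Over all genes tested, 8.95% passed. Promoter windows were available from RefSeq (GRCm38.p6) for 8 of the 10, each running from 250 bases before the start to 50 bases after it. They were searched on both strands for CACGTG, the canonical E-box, and for AGGTCA, the core letters of REV-ERB and ROR binding sites. Neither motif overlaps the other. CACGTG stood in windows of 2 called clock genes, Cry1 and Ciart, both higher in knockout. These windows and that of Nr1d2, which was lower and holds AGGTCA, are printed as examples of genes that differed in opposite directions. They run 5′ to 3′ on the strand of the gene, and capitals mark the motif.
Cry1, chr10:85185005-85185304, minus strand: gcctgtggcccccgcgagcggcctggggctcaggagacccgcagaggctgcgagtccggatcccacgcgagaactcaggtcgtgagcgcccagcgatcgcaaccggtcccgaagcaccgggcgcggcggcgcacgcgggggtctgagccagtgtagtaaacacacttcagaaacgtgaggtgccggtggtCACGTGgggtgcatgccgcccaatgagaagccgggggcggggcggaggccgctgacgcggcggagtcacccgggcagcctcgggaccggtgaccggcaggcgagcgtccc
Ciart, chr3:95882179-95882478, minus strand: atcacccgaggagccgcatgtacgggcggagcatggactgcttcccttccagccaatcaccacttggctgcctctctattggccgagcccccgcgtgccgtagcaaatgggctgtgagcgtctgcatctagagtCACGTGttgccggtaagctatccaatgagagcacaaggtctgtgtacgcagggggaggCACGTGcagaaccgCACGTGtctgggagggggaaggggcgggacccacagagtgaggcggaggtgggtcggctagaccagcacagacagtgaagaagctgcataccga
Nr1d2, chr14:18239057-18239356, minus strand: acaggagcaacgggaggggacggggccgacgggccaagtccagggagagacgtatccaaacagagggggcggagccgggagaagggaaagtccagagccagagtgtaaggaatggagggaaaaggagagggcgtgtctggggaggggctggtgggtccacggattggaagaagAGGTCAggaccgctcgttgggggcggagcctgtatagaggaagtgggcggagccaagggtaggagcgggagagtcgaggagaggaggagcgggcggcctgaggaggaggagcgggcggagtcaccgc
The E-box of Cry1 begins 60 bases before the start. Ciart holds 3 E-boxes, beginning 116, 58 and 44 bases before the start, and AGGTCA of Nr1d2 begins 77 bases before it. AGGTCA also lay in the window of Nfil3, which was higher in knockout, beginning 12 bases before the start, and in 1 of 2 windows of Arntl, 31 bases after it. The windows of Nr1d1, Per3 and Cry2 held neither motif. Among all RefSeq windows of this length 7.15% held CACGTG and 16.3% held AGGTCA. Among windows of genes tested the shares were 9.93% and 12.3%, among those of genes higher in knockout 10.7% and 11.9%, and among those of genes lower in knockout 8.95% and 11.8%. A match describes letters in a short window and says nothing of binding.

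The clock genes split into opposite directions. Nr1d2, which encodes REV-ERBβ, stood at 1145, 1172 and 1075 normalized counts in wild-type libraries and 113.5, 142 and 128 in knockout (log2 difference -3.14, SE 0.08, adjusted p = 6.25e-11). It had the lowest adjusted p of the clock genes. Nr1d1, encoding REV-ERBα, stood at 103, 108 and 122 against 23.3, 26.3 and 18.45 (-2.25, SE 0.20). Every knockout library was below every wild-type library for both receptors. Per3, a period gene, held 170, 126 and 145 in wild-type and 63.0, 76.3 and 55.4 in knockout (-1.17, SE 0.15). Bhlhe40, which encodes the DEC1 repressor of E-box genes, held 1493, 1151 and 1339 against 738, 628 and 517 (-1.09, SE 0.12). It too showed no overlap between genotypes.

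Cry1, which encodes a cryptochrome that inhibits CLOCK and BMAL1, went the other way, with 276, 276 and 281 normalized counts in wild-type and 872, 955 and 960 in knockout (1.74, SE 0.07, adjusted p = 2.41e-09). Its wild-type libraries lay within 6 counts of one another. Per2, another repressor, stood at 111, 85.0 and 117 against 221, 208 and 198 (1.01, SE 0.14). Cry2 stood at 149, 115 and 130 against 216, 271 and 228 (0.86, SE 0.13). Ciart, a repressor known as CHRONO, held 195, 141 and 180 in wild-type and 320, 362 and 283 in knockout (0.90, SE 0.15, adjusted p = 0.00129). For each of these the knockout libraries lay above all wild-type libraries.

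Nfil3, a repressor of D-box genes that REV-ERB represses, held 408, 353 and 395 in wild-type and 506, 523 and 464 in knockout (0.37, SE 0.08, adjusted p = 0.00687). Dbp and Tef, the activators of D-box genes, are known targets of BMAL1 and did not pass (-0.21 with adjusted p = 0.646, and 0.02 with adjusted p = 0.96). Per1 held 115 to 153 in wild-type and 104 to 109 in knockout and did not pass (-0.31, adjusted p = 0.649). Bhlhe41 (-0.07), Usp2 (-0.04), Wee1 (0.12), Rora (-0.13), Rorb (0.17), Npas2 (1.43, resting on 1 knockout library at 33.0 against 2.33 to 6.15 in the other hypoxia libraries) and Arntl2 (-0.41) did not pass either. Of 8 genes for turnover of clock proteins, such as the kinase Csnk1e (0.12) and the ubiquitin ligase subunits Fbxw11 (0.09) and Btrc (-0.07), 0 passed in either direction. In the list of clock repressors and E-box outputs, 4 of 14 were higher and 4 lower, with a median of -0.05, against 3.33% higher, 5.61% lower and a median of 0.00 over all genes tested. In the list of activators and AGGTCA outputs, Nfil3 was higher and Arntl, the targeted gene itself, lower of 7 (14.3% each).

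**Figure D1:**
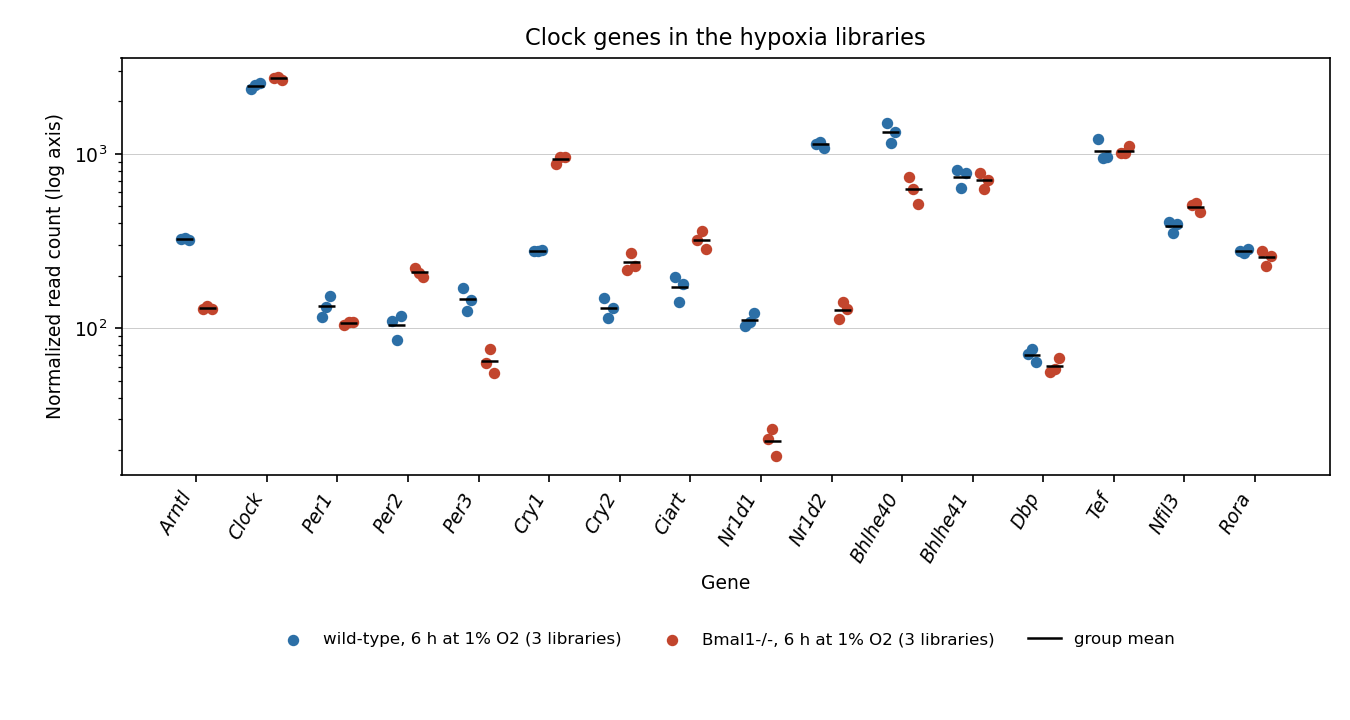
Normalized read counts (log axis) of 16 clock genes in the 3 wild-type and 3 Bmal1-/- hypoxia libraries, 1 point per library, with black lines at group means. Nr1d2, Nr1d1, Per3, Bhlhe40 and Arntl lie lower in knockout and Cry1, Per2, Cry2, Ciart and Nfil3 higher, while Dbp, Tef and Bhlhe41 overlap.

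Across all genes tested, 491 were higher and 827 lower in knockout, of which 54 and 174 differed by at least 2-fold. The median log2 difference of called genes was 0.41 for the higher and -0.50 for the lower. The 3 knockout and 3 wild-type libraries did not overlap for 26.3% of all genes tested, so lack of overlap by itself is common here. Of the called genes, 721 of 1318 kept their call whichever single library was left out. Counts fell to 318 higher without knockout hypoxia replicate 2 and 325 without wild-type hypoxia replicate 2.

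Pseudogenes and predicted models aside, Plekha7 had the largest difference among the genes chosen as higher in knockout. It encodes a junction protein and stood at 13.3, 17.6 and 18.7 normalized counts in wild-type and 262, 271 and 308 in knockout (4.01, SE 0.19). Asb4, encoding a subunit of a ubiquitin ligase, stood at 11.4, 14.8 and 17.1 against 90.2, 99.0 and 86.1 (2.60, SE 0.27). Both genes were near the lower limit of the filter in wild-type cells and well above it in each knockout library. Genes known from muscle stood among the set with Cry1 and genes of other roles. Myo18b, a myosin of the sarcomere, held 38.1, 45.0 and 46.6 against 114, 144 and 158 (1.65, SE 0.16). Mybpc1, slow myosin binding protein C, held 250, 230 and 242 against 682, 663 and 544 (1.38, SE 0.11). Mstn, which encodes myostatin, the secreted inhibitor of muscle growth, held 60.04, 38.7 and 52.9 against 125, 124 and 108 (1.24, SE 0.16). Lack of overlap between groups was a condition of the choice for all of these.

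The other genes in this leading set were Nnat (1.49), an imprinted membrane proteolipid, the vasopressin receptor gene Avpr1a (1.40), Ppp1r27 (1.36), a regulatory subunit of protein phosphatase 1, the polysialyltransferase gene St8sia4 (1.35) and Tfpi2 (1.29), a protease inhibitor. They also included the phosphatase gene Ppm1e (1.26), Megf6 (1.25), the synaptotagmin gene Syt14 (1.25) and Fabp7 (1.21), a fatty acid binding protein. Each kept its call without any single library.

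The set with the largest differences lower in knockout, chosen for no overlap between groups, held clock, secreted, signalling and other genes. In it Rasgrf1, an exchange factor for RAS, held 62.9, 58.3 and 85.5 normalized counts in wild-type and 3.88, 17.3 and 11.3 in knockout (-2.74, SE 0.39). The chemokine gene Cxcl14 held 217, 195 and 208 against 34.0, 29.1 and 31.8 (-2.67, SE 0.13). Aldh1a2, the main enzyme that makes retinoic acid, held 753, 759 and 714 against 133, 123 and 129 (-2.52, SE 0.08, adjusted p = 1.98e-10). Rasgrf1 was the least even of these 3 within each genotype. Hgf, hepatocyte growth factor, which activates satellite cells through MET, held 91.5, 105 and 106 against 15.5, 20.0 and 19.5 (-2.40, SE 0.19). Fgf2, basic fibroblast growth factor, held 112, 120 and 101 against 29.1, 22.7 and 24.6 (-2.09, SE 0.19). The same factor was added to the medium of all cultures.

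Lrrc32, which encodes GARP, an anchor of latent TGF-beta at the cell surface, held 1137, 1082 and 1151 against 265, 271 and 248 (-2.10, SE 0.07, adjusted p = 6.27e-10). Its libraries were tight within each genotype. Others of the set were Lrrn4cl (-2.53), the neurofilament gene Nefl (-2.24), the matrix protein gene Efemp1 (-2.14), Medag (-1.98), the globin gene Cygb (-1.98) and Tshz2 (-2.08). Tshz2 lost its call without any 1 of 4 libraries, with adjusted p up to 0.0996, and held 19.4, 29.97 and 3.08 in knockout.

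Among called genes, the 3 largest fitted differences belonged to pseudogenes of ribosomal protein genes, singled out after their values were seen. Rps13, a ribosomal protein gene on chromosome 7, held 7298, 7268 and 7015 normalized counts in wild-type and 5333, 5068 and 5000 in knockout (-0.49, SE 0.05). Its pseudogene Rps13-ps1 held 65.8, 102 and 104 in wild-type and 3002, 2929 and 2719 in knockout, while Rps13-ps2 held 170, 124 and 129 in wild-type and was listed at 0 in all knockout libraries. The gene and the second copy were lower in knockout and the first copy was higher. Summed over Rps13 and its pseudogenes, the values were 7535, 7497 and 7252 against 8335, 8001 and 7721. Rps15a did not pass (-0.10, adjusted p = 0.22). Rps15a-ps7 held 190, 122 and 115 against 1329, 1227 and 1176, and Rps15a-ps8 was listed at 0 in wild-type and held 156, 175 and 177 in knockout. Rps15a-ps4 (3.49) and Rps15a-ps6 (2.295) were higher in knockout too. Summed over Rps15a and its pseudogenes, the values were 10511, 9737 and 9567 against 11205, 10841 and 10846. Processed pseudogenes can share reads with their gene, and how the authors' counting split reads among them is not given in the sources used here, so these values are uncertain. Of 81 cytosolic ribosomal protein genes 0 were higher and 1 lower, Rps13 (1.23%, against 5.61% of all genes tested), with a median of 0.01.

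Rps13 and Rps15a both lie near Arntl, and genes around the targeted locus were counted by position. Of 48 tested protein-coding genes within 5 Mb of Arntl 4 were higher (8.33%, against 3.33% of all genes tested) and 3 lower (6.25%, against 5.61%), with a median of 0.01. Plekha7 lies 2.81 Mb to the right of Arntl, at 116123485 to 116308376 on the minus strand. Rps13, among the lower, lies 3.02 Mb to the right, and its values are uncertain because its pseudogenes can share its reads. Arl6ip1, which encodes an endoplasmic reticulum shaping protein, lies 4.8 Mb to the right. It held 3006, 2943 and 2782 against 2167, 2197 and 2118 (-0.43, SE 0.04). The 4 called genes that the naming rule did not pick were named after their values were seen. They were Galnt18 at 0.93, Mical2 at -0.32, Pik3c2a at 0.20 and Xylt1 at 1.69. The count higher fell from 4 to 2 without replicate 3 of the wild-type group, and likewise without knockout hypoxia replicate 2.

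**Figure D2:**
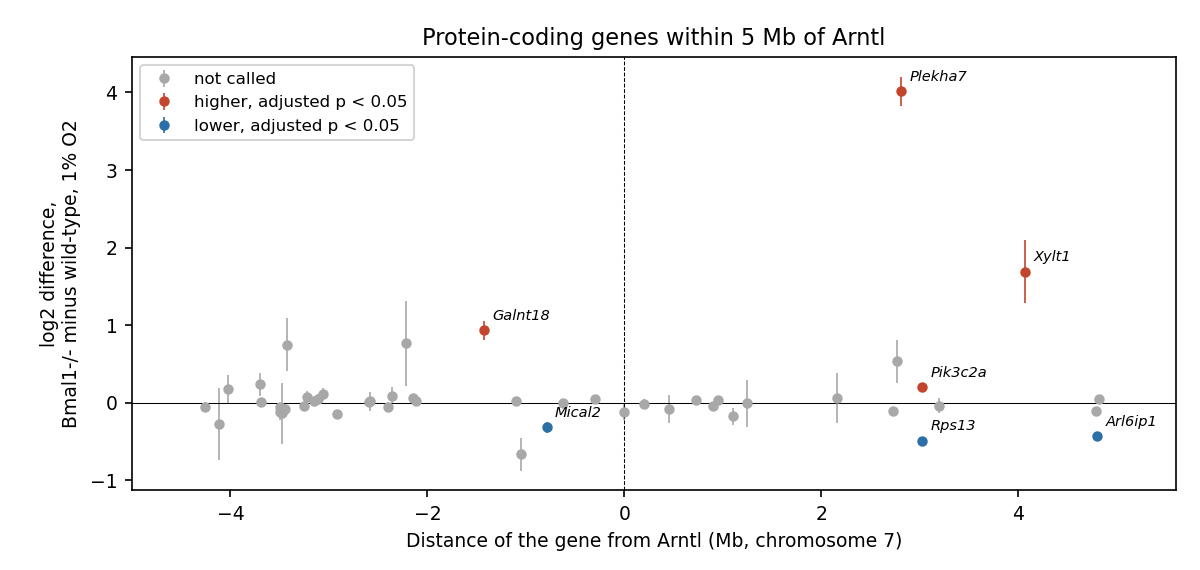
Log2 difference between Bmal1-/- and wild-type in hypoxia (points, with bars of 1 SE) of tested protein-coding genes by their distance in Mb from Arntl on chromosome 7, negative to the left. Plekha7 at 4.01 stands far above the rest, and 41 of the 48 genes were not called.

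Genes of muscle differentiation were often higher in knockout. Of 37 tested members, 24 were higher and 0 lower, with a median log2 difference of 0.39, against 3.33% higher and a median of 0.00 over all genes tested. Leaving out single libraries gave 19 to 30 higher and 0 lower. Tnnt1, slow troponin T, held 2243, 2177 and 2068 normalized counts in wild-type and 3299, 3270 and 3216 in knockout (0.59, SE 0.05, adjusted p = 1.73e-06). Myh3, embryonic myosin heavy chain, held 7464, 6078 and 6742 against 11110, 10960 and 10910 (0.71, SE 0.08). Smyd1, a methyltransferase and chaperone partner of myosin, held 1058, 889 and 911 against 1601, 1467 and 1432 (0.66, SE 0.07). All knockout libraries lay above all wild-type libraries for these 3 genes. The values summed over the list ran from 83194 to 94716 in wild-type and from 121362 to 124208 in knockout.

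Myog, which encodes the myogenic factor that starts terminal differentiation, held 5808, 4596 and 4664 against 6929, 6231 and 6113 (0.36, SE 0.09, adjusted p = 0.0165). Its call was lost without any 1 of 3 libraries. Among 20 genes of satellite cell and myoblast identity 5 were higher (25.0%, against 3.33% of all genes tested) and 1 lower (5.0%, against 5.61%), with a median of 0.06. Without the variance trend 3 were higher. Myf5, a determination factor, held 1171, 1269 and 1258 against 1633, 1807 and 1847 (0.51, SE 0.07), and Met, the receptor of HGF, was higher by 0.19. Sdc4, a surface proteoglycan of satellite cells, was lower at -0.21. Myod1 (0.05, adjusted p = 0.65) and Pax7 (-0.03, adjusted p = 0.91) did not pass.

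**Figure D3:**
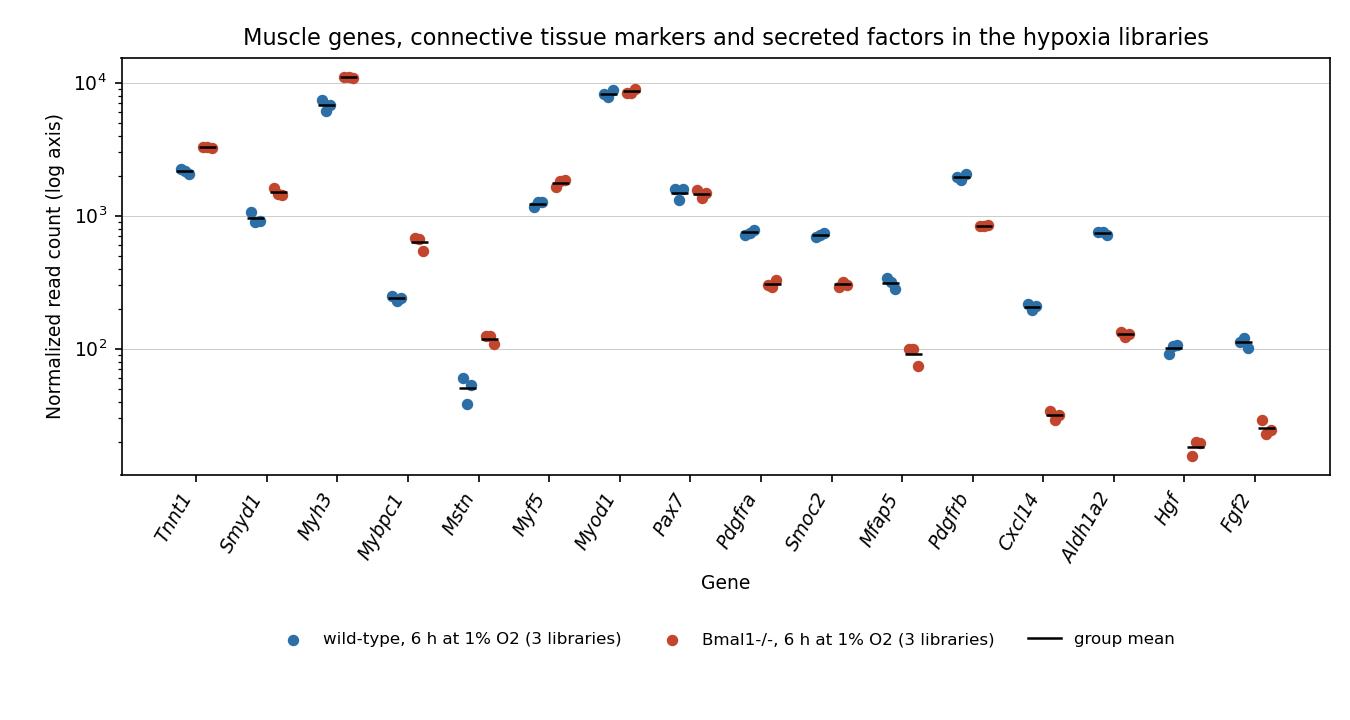
Normalized read counts (log axis) of 16 genes in the 3 wild-type and 3 Bmal1-/- hypoxia libraries, 1 point per library, with black lines at group means. Tnnt1, Smyd1, Myh3, Mybpc1, Mstn and Myf5 lie higher in knockout, Myod1 and Pax7 overlap, and the 8 genes from Pdgfra to Fgf2 lie lower in every knockout library.

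Most tested markers of fibroblasts, which can grow beside myoblasts in a culture, were lower in knockout. Of the 15 markers fixed for fibro-adipogenic progenitors and fibroblasts, 11 were tested. Of these 0 were higher and 8 lower (72.7%, against 5.61% of all genes tested), with a median of -0.67. Pdgfra, the receptor that defines these progenitors, held 717, 745 and 786 normalized counts in wild-type and 300, 292 and 326 in knockout (-1.29, SE 0.07). Smoc2, a matrix protein, held 690, 710 and 746 against 291, 318 and 302 (-1.23, SE 0.06). Mfap5, a microfibril protein, held 341, 319 and 279 against 98.9, 99.9 and 73.8 (-1.78, SE 0.15). Summed over the listed markers, values ran from 18723 to 19049 in wild-type and from 14611 to 15074 in knockout. Dpt and Pi16, markers of the universal fibroblast, were at 4.22 or lower in each hypoxia library. In bulk RNA, fewer cells of a type and less RNA per cell cannot be told apart.

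Pericyte and smooth muscle markers were lower in knockout too, with 0 of 12 higher and 7 lower (median -0.58). The 7 were 58.3%, against 5.61% of all genes tested. Pdgfrb held 1947, 1858 and 2044 against 831, 837 and 856 (-1.21, SE 0.08). Mcam (-0.52) and Tagln (-0.69), an actin-binding protein of smooth muscle that myoblasts also express, were lower too. The sum over this list ran from 43512 to 44858 in wild-type and from 37566 to 37932 in knockout. Des stands in this list and in that of myoblast identity, so the sum does not measure pericytes and smooth muscle alone. Of 7 endothelial markers 1 was lower (14.3%), Esam (29.6, 30.2 and 31.9 against 9.70, 9.99 and 6.15). The sums were 197 to 210 and 147 to 174. Kdr and Tek did not pass.

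Of 3 leukocyte markers tested 0 passed, the list summed to 98.2 to 140 in wild-type and 159 to 182 in knockout, and Laptm5 had 0.51 with adjusted p = 0.136. Among 5 Schwann cell markers, Erbb3 (0.40) and Mbp (0.68) were higher (40.0%, against 3.33% of all genes tested). Ngfr (-0.62) was lower (20.0%, against 5.61%), and the list sums were 651 to 700 and 727 to 767. Of 3 adipocyte markers Lpl was higher (0.34) and Pparg lower (-0.65), 33.3% each way. Of 3 tenocyte markers, Scx among them (-0.13), 0 passed. Calls of Mbp, Lpl and Pparg were lost without single libraries. These cell types' part in the results on muscle, matrix and secreted genes was not tested.

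Among 29 matrix glycoproteins and proteoglycans 2 were higher (6.9%) and 18 lower (62.1%), with a median of -0.40. Over all genes tested 3.33% were higher and 5.61% lower. Fbln2, fibulin 2, held 6671, 6378 and 6695 normalized counts against 3098, 3478 and 3516 (-0.97, SE 0.06). Bgn, biglycan, held 10160, 9448 and 10380 against 5505, 5432 and 5738 (-0.85, SE 0.05), and Sparc, osteonectin, held 31010, 29890 and 30420 against 21380, 21940 and 21880 (-0.49, SE 0.03). Each group was tight and none overlapped. Mfap5 stands in this list and in the fibroblast markers.

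Of 24 collagen chains 4 were higher (16.7%, against 3.33% of all genes tested) and 9 lower (37.5%, against 5.61%). Col1a2 of fibrillar collagen I was lower (-0.77, SE 0.06), as was Col15a1 (-1.15, SE 0.09). Collagen VI chains, singled out after their values were seen, divided: Col6a1 was higher (1011, 697 and 815 against 1742, 1498 and 1494, 0.92), as was Col6a2 (1.196), and Col6a3 was lower (-0.62). Col4a1 of basement membranes was higher, at 7550, 7816 and 7758 against 10040, 10420 and 9774 (0.39, SE 0.04). Of 26 integrins and laminins 4 were higher (15.4%) and 9 lower (34.6%). The integrins Itgb3 (-1.10), Itga11 (-1.45) and Itga5 (-0.49) were among the lower. The count of higher members was 2 without any 1 of 3 libraries. Of 22 matrix proteases and inhibitors 4 were higher (18.2%) and 7 lower (31.8%). Timp3, an inhibitor of metalloproteinases, held 789, 752 and 815 against 267, 278 and 261 (-1.54, SE 0.10) and Timp1 was lower by less (-0.75). Plau, the urokinase, was higher (0.37, SE 0.03). The protease count higher was 1 without wild-type hypoxia replicate 2.

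Inflammatory cytokines and chemokines had 0 of 20 higher and 11 lower (55.0%, against 5.61% of all genes tested), with a median of -0.60. Ptgs2, cyclooxygenase 2, held 2327, 2675 and 2701 normalized counts against 950, 918 and 1146 (-1.36, SE 0.09). Tnfsf11, the RANK ligand, held 321, 320 and 346 against 166, 177 and 203 (-0.86, SE 0.09). Both were lower in every knockout library. The interferon list had a median of -0.30, with 2 differences positive and 20 negative. For 8 of its 22 genes all knockout libraries lay below all wild-type libraries, against 13.9% of all genes tested. In this list 0 of 22 were called higher and 3 lower (13.6%), Irf1 (-0.42), Ddx58 (-0.63) and Irgm1 (-0.49). All 3 calls were lost without wild-type hypoxia replicate 1.

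In the list of HGF, FGF and Sprouty feedback 1 of 20 was higher (5.0%) and 8 lower (40.0%). Over all genes tested 3.33% were higher and 5.61% lower. The receptor gene Fgfr1 was lower at -0.57 (SE 0.07). Of 16 genes for retinoic acid synthesis and response 0 were higher and 5 lower (31.2%). Beside Aldh1a2 they included a second synthesizing enzyme, Aldh1a3, at 602, 503 and 595 against 242, 222 and 236 (-1.27, SE 0.10), and Dhrs3, a retinaldehyde reductase that retinoic acid induces, at 332, 212 and 229 against 75.65, 59.9 and 72.8 (-1.86, SE 0.16). Knockout libraries lay below wild-type libraries for all 3.

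For TGF-beta, activin and BMP, 2 of 40 were higher (5.0%, against 3.33% of all genes tested) and 8 lower (20.0%, against 5.61%). Inhba, the subunit of activin A, held 774, 862 and 950 against 283, 286 and 295 (-1.57, SE 0.09). Fstl1 (-0.78) and Tgfbi (-1.07), a matrix protein that TGF-beta induces, were lower too. The count lower ran from 4 to 11 without single libraries, and was 4 without wild-type hypoxia replicate 3. Of 29 Wnt pathway genes 0 were higher and 5 lower (17.2%). These included the antagonist Dkk2 (-1.40, SE 0.10), the ligand Wnt5a (-0.61, SE 0.06) and the transcription factor Lef1 (-0.63). Only 2 were lower without any 1 of 3 libraries, wild-type hypoxia replicates 2 and 3 and knockout hypoxia replicate 1.

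On the IGF axis 3 of 18 were higher (16.7%, against 3.33% of all genes tested) and 5 lower (27.8%, against 5.61%). The binding proteins Igfbp6 (-1.20) and Igfbp7 (-0.66) were lower and the adaptor Grb10 was higher (0.35). Of 18 Notch genes 2 were higher (11.1%), Hes6 (0.30) and Lfng (0.38). The 1 lower (5.56%, near the share over all genes) was the ligand Jag1 (-0.76, SE 0.10). In the YAP-TEAD list 0 of 22 were higher and 3 lower (13.6%). Ccn2, connective tissue growth factor, held 3904, 4490 and 4369 against 1276, 1499 and 1391 (-1.62, SE 0.07), while Amotl1 (-0.39) and Axl (-0.19) were lower by small amounts. Immediate early genes had 0 of 28 higher and 7 lower (25.0%). Egr2 held 354, 326 and 347 against 140, 132 and 131 (-1.34, SE 0.10), with Nr4a2 at -0.72 and Ier3 at -0.63.

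**Figure D4:**
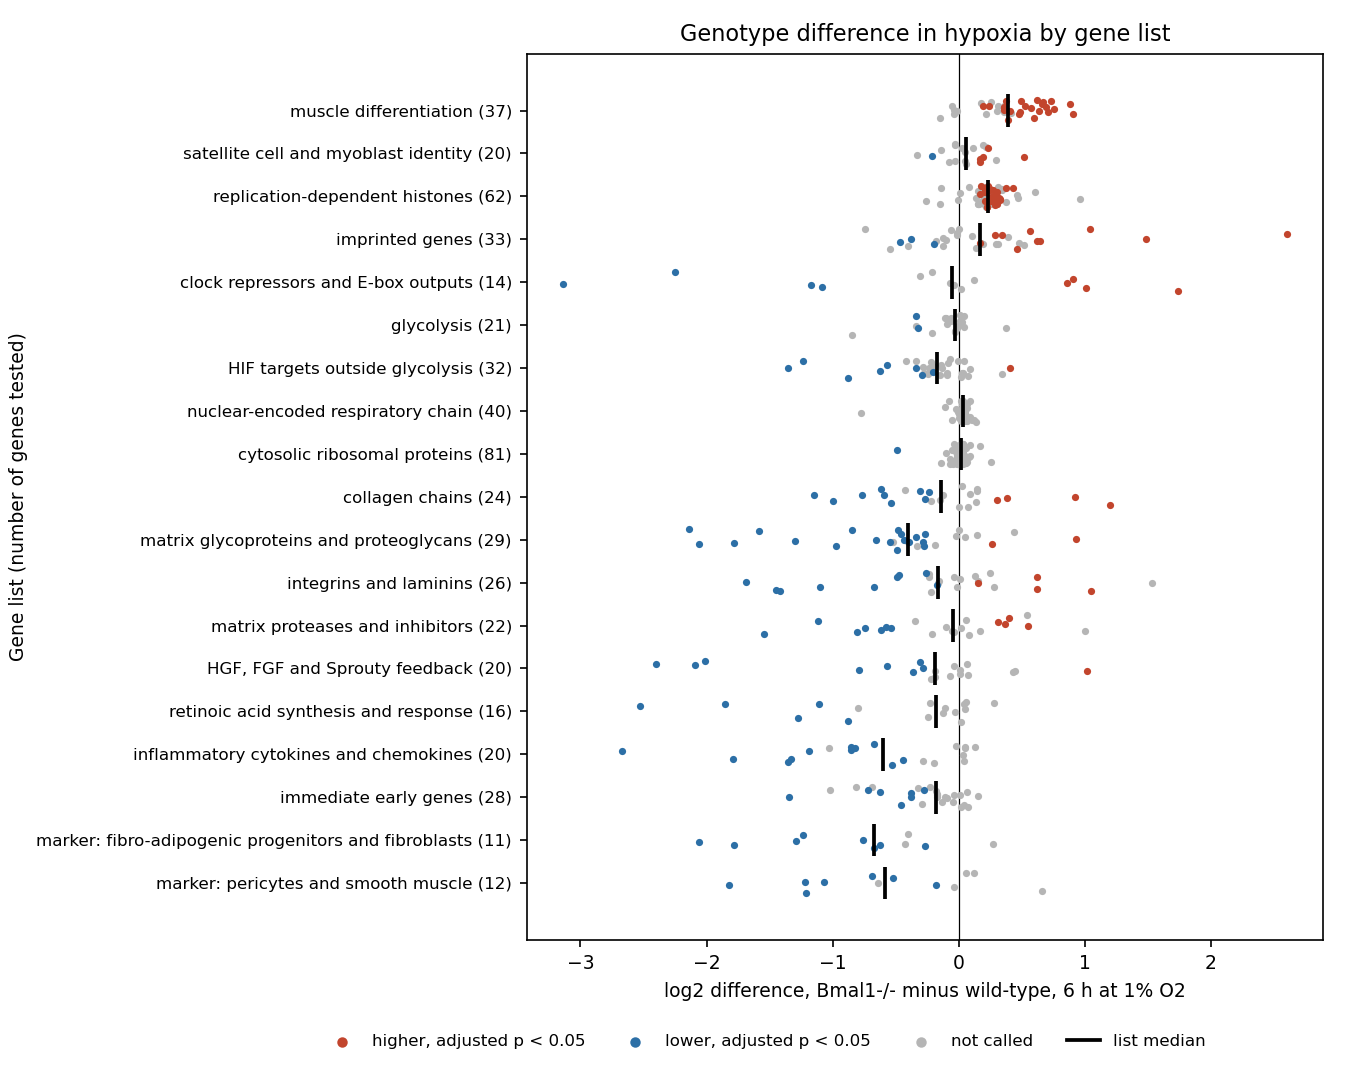
Log2 difference between Bmal1-/- and wild-type in hypoxia for each tested member of 19 gene lists (points, red higher and blue lower at an adjusted p under 0.05, grey not called), with black bars at list medians. Muscle differentiation lies to the right with a median of 0.39, and matrix glycoproteins, cytokines, fibroblast markers and pericyte markers lie to the left with medians from -0.40 to -0.67.

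Hif1a held 3817, 3559 and 3464 normalized counts in wild-type and 3597, 3449 and 3288 in knockout (-0.07, SE 0.05, adjusted p = 0.526). Of 9 genes for oxygen sensing and HIF subunits 1 passed (11.1%, against 8.95% of all genes tested), Arnt2, a partner subunit of HIF (283, 290 and 313 against 402, 410 and 444, 0.50, SE 0.08). Arnt and Vhl did not pass. Of 21 glycolysis genes 0 were higher and 2 lower (9.52%, against 5.61% of all genes tested), the hexokinase Hk2 (-0.34, SE 0.08, adjusted p = 0.0178) and the glucose transporter Slc2a1 (-0.32, SE 0.09, adjusted p = 0.0392), with a list median of -0.03. Leaving out replicate 1 or 3 of the wild-type hypoxia group, or knockout hypoxia replicate 3, removed both calls, and Slc2a1 held 3840, 2919 and 3248 against 2960, 2570 and 2459. Ldha (0.01), Pdk1 (0.00) and Nampt (0.09) did not pass.

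HIF targets outside glycolysis had 1 of 32 higher and 8 lower (25.0%, against 5.61% of all genes tested), with a median of -0.18. Among the lower were the collagen cross-linking enzymes Loxl2 (-1.35, SE 0.08) and Lox (-0.57, SE 0.04), which are matrix genes as well as HIF targets. Vegfa, the vessel growth factor, held 5123, 4495 and 4980 against 4339, 4144 and 4169 (-0.20, SE 0.06, adjusted p = 0.0483) and lost its call without 9 of the 11 libraries. The higher gene was the transferrin receptor Tfrc (0.40, SE 0.08). The count lower was 4 without knockout hypoxia replicate 2 or 3 and 5 without wild-type hypoxia replicate 1.

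In energy metabolism few genes passed. Shares are set against those over all genes tested, 3.33% higher and 5.61% lower. Of 40 nuclear-encoded respiratory chain genes and 13 mitochondrially encoded transcripts 0 passed in either direction, with medians of 0.04 and 0.03. Without wild-type hypoxia replicate 3, 2 of the 13 mitochondrial transcripts were higher. Of 27 genes for pyruvate dehydrogenase and the TCA cycle 2 were higher (7.41%) and 0 lower. Pdk4, a kinase that inhibits pyruvate dehydrogenase, held 325, 352 and 323 against 674, 640 and 665 (0.98, SE 0.06, adjusted p = 2.91e-07), and Idh2, mitochondrial isocitrate dehydrogenase, was higher by 0.21. In the NADH shuttles Gpd2, mitochondrial glycerol phosphate dehydrogenase, was lower (3587, 3960 and 4055 against 2634, 3077 and 2987, -0.42, SE 0.07). It was the 1 call among 10 genes. Of 17 genes for NAD synthesis and use 3 were higher (17.6%), Nadsyn1 (0.46, SE 0.09), Parp1 (0.15) and Sirt1 (0.23). Parp1 and Sirt1 lost their calls without single libraries. Gpd1, at 4.77 to 7.77, was below the filter.

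Of 62 replication-dependent histone genes tested, 28 were higher in knockout (45.2%, against 3.33% of all genes tested). Of the rest 0 were lower and 34 did not pass (list median 0.24). For 46 all knockout libraries lay above all wild-type libraries, against 12.4% of all genes tested. Hist1h1e, a linker histone, held 7594, 7114 and 7105 normalized counts against 8559, 8340 and 8250 (0.21, SE 0.04), and Hist1h4i held 639, 628 and 572 against 773, 769 and 725 (0.30, SE 0.06). The count of called histones fell to 7 without wild-type hypoxia replicate 2, to 12 without replicate 3, to 5, 17 and 18 without knockout hypoxia replicates 1, 2 and 3, and to 4 without the variance trend. On chromosome 13, 49 of 567 tested genes were higher (8.64%), and 26 of the 49 were histones. Summed histone values ran from 155909 to 167408 in wild-type hypoxia and from 183347 to 197431 in knockout hypoxia. In normoxia the ranges were 147770 to 164717 and 146261 to 161356, and 2 histones were higher and 3 lower. The difference between the genotype effects was positive for 58 of the 62, and its lowest adjusted p was 0.529, so it passed for 0 of them.

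Of 36 DNA replication genes 5 were higher (13.9%, against 3.33% of all genes tested) and 0 lower (median 0.09), among them Pole (0.31, SE 0.04), the catalytic subunit of a replicative polymerase, and Rrm2 (0.22, SE 0.04). The 5 became 2 without replicate 1 of the wild-type hypoxia group or knockout hypoxia replicate 2, 3 without knockout hypoxia replicate 1, and 1 without the variance trend. Of 35 mitosis genes 3 were higher (8.57%) and 1 lower (2.86%). The list median was 0.09, with 32 differences positive and 3 negative, against 7574 positive of the 14729 genes tested. For 20 mitosis genes all knockout libraries lay above all wild-type libraries, against 12.4% of all genes tested. Cdc25b, a phosphatase that activates CDK1, held 1148, 1100 and 1184 against 598, 605 and 685 (-0.86, SE 0.07), while Top2a (0.17) and Ccnb1 (0.14) were higher with calls that single libraries removed. The mitosis count higher fell to 0 without replicate 3 of the wild-type group, and likewise without knockout hypoxia replicate 1. Among 19 D cyclins, CDK inhibitors and related genes 1 was lower (5.26%), Ccnd2 (-0.49, SE 0.05). E2f2 (0.73, SE 0.13) and Rb1 (0.23) were higher (10.5%), and Rb1 lost its call without any 1 of the 6 hypoxia libraries.

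Shares of stress genes that passed are given beside those over all genes tested, 3.33% higher and 5.61% lower. Of 24 genes of the integrated stress response 4 were higher (16.7%) and 1 lower (4.17%), including Fgf21, a secreted stress hormone, at 78.2, 64.7 and 42.8 against 150, 114 and 108 (1.02, SE 0.19), and the amino acid transporter Slc7a5 (0.34). The 4 became 2 without knockout hypoxia replicate 2, and the 1 lower became 0 without replicate 1 or 2 of the wild-type hypoxia group or knockout hypoxia replicate 3. Of 26 p53 targets 2 were higher (7.69%), Gadd45a (0.54, SE 0.06) and Plk2 (0.35). The 1 lower (3.85%) was Phlda3 (-0.24), a call that any 1 of 3 libraries removed. Of 26 NRF2 and pentose phosphate genes 0 were higher and 5 lower (19.2%), among them Gsta4 (-0.74, SE 0.11), Tkt (-0.26) and Nqo1 (-0.32). Endoplasmic reticulum chaperones had 1 higher (4.76%) and 3 lower (14.3%) of 21, and all 3 lower calls, Edem1, P4hb and Calr, were lost without wild-type hypoxia replicate 1. Of 26 cholesterol synthesis genes and 6 keratin and epithelial genes 0 passed, and of 14 iron genes Tfrc was the 1 call (7.14% higher). Among 120 small nuclear and nucleolar RNA genes 0 were higher and 3 lower (2.5%), and the 3 became 0 without replicate 1 of the wild-type hypoxia group, 8 without its replicate 3 and 1 without knockout hypoxia replicate 2.

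Imprinted genes, which are expressed from 1 parental copy, had 10 of 33 higher and 3 lower (median 0.17). The shares were 30.3% higher, against 3.33% of all genes tested, and 9.09% lower, against 5.61%. Asb4 and Peg10 are neighbours in an imprinted cluster on chromosome 6, and Peg10 held 895, 839 and 927 against 1927, 1731 and 1829 (1.04, SE 0.07). Nnat held 69.6, 69.6 and 68.4 against 210, 167 and 212. The count of 10 higher was unchanged without each of the 11 libraries.

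The same genotype difference was measured in normoxia in 5 libraries that share none with the hypoxia comparison. There 506 genes were higher (3.44%) and 833 lower (5.66%), together 9.09%. Called in both with the same direction were 818 genes, 247 higher and 571 lower, which is 62.1% of the hypoxia list and 61.1% of the normoxia list. These comparisons share the variance estimate of the fit, and the labels do not say whether they also share mice or cultures. They may therefore not be independent. When each oxygen level was fitted by itself, 621 genes were shared, 49.0% of 1268 and 73.1% of 849. Across all genes tested the log2 differences correlated with r = 0.572 and rho = 0.476, a description over genes that are not independent. Of the genes called in hypoxia, 1265 of 1318 had the same sign in normoxia, against 68.2% of all genes tested. Of the 142 named genes that passed in hypoxia, 107 passed in normoxia in the same direction.

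**Figure D5:**
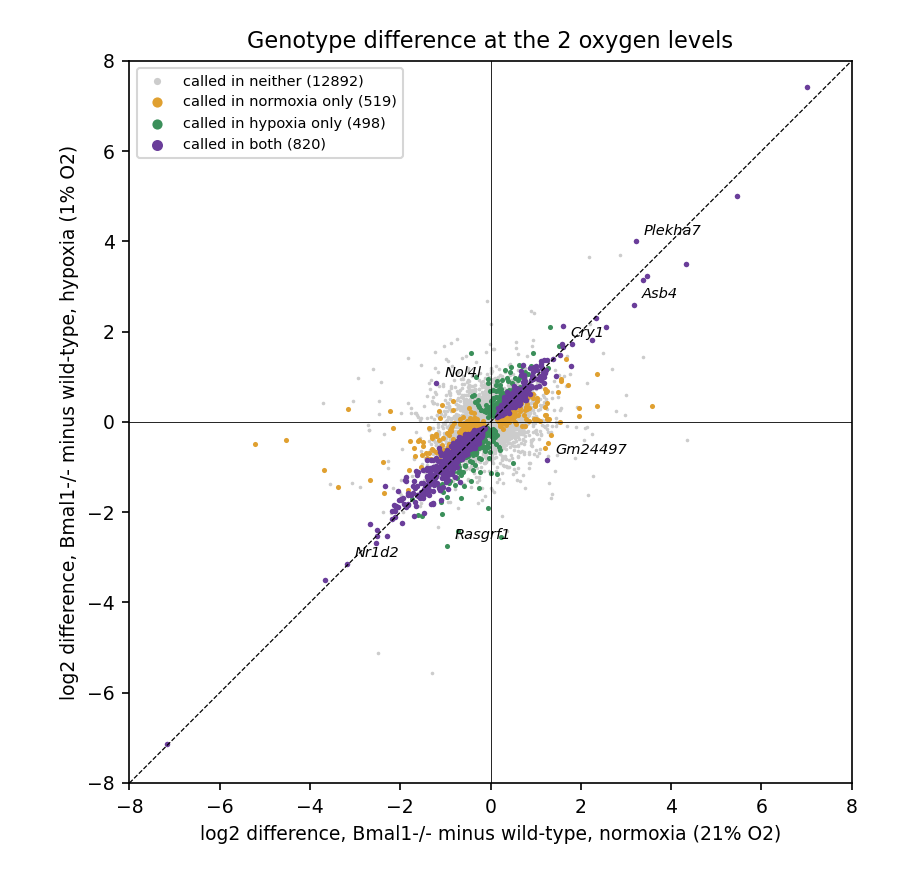
Log2 difference between Bmal1-/- and wild-type in hypoxia (vertical) against normoxia (horizontal) for the 14729 genes tested, coloured by where they were called. The dashed line marks equal differences, and the genes called in both, except Nol4l and Gm24497, have the same sign on both axes, with Nr1d2 low and Cry1, Asb4 and Plekha7 high at both oxygen levels.

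The test of whether the genotype difference itself changed with oxygen called 1 gene by limma (0.00679% of genes tested), higher, and 0 lower. Of the 14729 genes tested 784 had an unadjusted limma p under 0.05, which makes no allowance for the number of tests. The 1 called gene, Gm23925, is described in the closing section. The edgeR quasi-likelihood test on recovered reads called 0, and DESeq2 called 4 higher and 1 lower. Named genes that differed most were Nol4l, which was higher in hypoxia (28.6, 22.5 and 31.1 in wild-type against 56.2, 55.4 and 40.0 in knockout, 0.86) and lower in normoxia (-1.21), and the small nuclear RNA gene Gm24497, lower in hypoxia (-0.85) and higher in normoxia (1.25). These were the 2 genes called in opposite directions, and for both the adjusted p of the difference was 0.284. Leaving out any 1 of 7 libraries removed the hypoxia call of Nol4l (adjusted p = 0.0381), and any 1 of 9 removed that of Gm24497 (adjusted p = 0.0445). Sntb1, syntrophin beta 1, was higher in hypoxia (247, 221 and 225 against 412, 391 and 415, 0.81, SE 0.08) and was not called in normoxia (0.20), with adjusted p = 0.529 for the difference.

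Among clock genes, Arntl2 was not called at either oxygen level and went from 0.77 in normoxia to -0.41 in hypoxia (-1.18, adjusted p = 0.871 for the difference), and Per1 went from -1.02 to -0.31 (0.71, adjusted p = 0.917). Bhlhe40 had a difference between the genotype effects of 0.57 (SE 0.18, adjusted p = 0.871), from -1.66 in normoxia to -1.09 in hypoxia. Ciart was called in hypoxia (0.90) and not in normoxia (0.38), and its difference of 0.52 did not pass (SE 0.22, adjusted p = 0.917). Rasgrf1, at -2.74 in hypoxia and -0.97 in normoxia, did not pass either (adjusted p = 0.905). Hilpda, a HIF target of lipid storage, had -0.29 in hypoxia and 0.28 in normoxia, with adjusted p = 0.598 for the difference. The median SE of this difference was 0.148, wider than the 0.0987 of the hypoxia comparison.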

How the data were processed

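RNA sequencing libraries of primary mouse myoblasts (total RNA, stranded kit per the labels) were analysed from 1 deposited table of normalized counts for 11 libraries. Its columns were matched to samples by their titles, and 0 columns of per-sample values were unused. The submitters' processing notes name bcl2fastq, STAR, Picard, HTSeq, RSEM, DESeq2 and mm10, without roles or versions. The deposited values are a signal: counts that the authors divided by a size factor for each library. Whole reads could be recovered from 100% of values (within 0.01), and their totals ran from 18707697 to 33613328. Identifiers were matched to symbols in 21819 of 22104 cases through GENCODE M21 (GRCm38).

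Values were compared as log2(value + 1), which understates differences of low genes, after a filter of at least 10 in 2 libraries. One limma-trend model (limma 3.58.1, R 4.3.3) with the 4 groups was fitted to all 11 libraries, so that they share 1 estimate of the spread, with Benjamini-Hochberg adjustment over all genes tested and a threshold of 0.05. Contrasts were knockout against wild-type in hypoxia, the same in normoxia, and the difference between them. The procedure was tested on simulated data. Alternatives were 10 other settings, including edgeR 4.0.16 and DESeq2 1.42.0 on recovered reads, and leaving out each of the 11 libraries. Replicate numbers here follow accession order and only name libraries.

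The genes and lists were chosen with earlier results of these data known. Named genes were Arntl and all tested clock genes, up to 15 higher and 15 lower genes with the largest difference (called, mean at least 50, no overlap, no pseudogene or predicted model), up to 3 per list by smallest adjusted p, 5 genes in each direction for the difference between effects, and 9 genes of oxygen response and myoblast identity tested by name. A list's members are described by counts and medians, with no test of the list. Promoter windows came from RefSeq (GRCm38.p6). Genes that the naming rule picked but that are withheld for evaluation are not reported here.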

Additional observations from a re-analysis of the deposited data

Results flagged for a closer look

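Gm23925 (ENSMUSG00000064405), a small nucleolar RNA gene on chromosome 2 from 158359798 to 158359929, was the 1 gene whose genotype difference passed the test of a change with oxygen. The difference between the effects was 4.74 (SE 0.50, adjusted p = 0.00368 by limma). It was listed at 0 in all 3 knockout normoxia libraries and held 37.5 and 35.4 normalized counts in wild-type normoxia, while hypoxia libraries held 44.8, 34.4 and 26.4 for wild-type and 31.0, 28.2 and 16.4 for knockout. A second identifier with the same symbol (ENSMUSG00000100992) covers the same stretch shifted by 1 base. It held 65.8, 102 and 94.4 in the 3 knockout normoxia libraries and 35.3 and 34.2 in wild-type normoxia. Summed over both identifiers, the values were 72.8 and 69.6 in wild-type normoxia, 65.8, 102 and 94.4 in knockout normoxia, and in hypoxia 87.7, 68.2 and 52.1 for wild-type against 61.1, 55.4 and 32.8 for knockout. How reads were divided between the identifiers was not tested.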

How the results depend on the processing

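The count of 491 genes higher in knockout in hypoxia ranged from 318 to 497 when single libraries were left out, lowest without knockout hypoxia replicate 2 and next without wild-type hypoxia replicate 2 (325), and the count of 827 lower from 596 to 847. In normoxia 506 higher became 319 without the variance trend, 294 when each oxygen level was fitted alone and 229 to 532 without single libraries. The 833 lower became 555 when each oxygen level was fitted alone and 439 to 832 without single libraries, lowest without wild-type normoxia replicate 2. The overlap of 818 genes became 542 to 759. For the difference between the effects, 1 higher became 0 with a pseudocount of 5, with a filter of at least 50 in 3 libraries and with edgeR, 4 with DESeq2 and 1 to 2 without single libraries. The 0 lower became 1 with DESeq2 and 0 to 1 without single libraries. Arntl kept its call in every setting run. The cause of these changes was not tested.

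Some uncalled genes changed sign, and the ranges of Thbs4 and Rorb were wide. With TMM scaling Kdm5d was at -0.0052 and Ldha at -0.000371. Without single libraries the ranges were -0.0497 to 0.13 for Tef, -0.17 to 0.0111 for Bhlhe41, -0.18 to 0.19 for Usp2, -0.12 to 0.39 for Rorb, -0.23 to 1.06 for Thbs4, -0.18 to 0.24 for Mkx, -0.025 to 0.0518 for Kdm5d, -0.0215 to 0.0491 for Ldha, -0.11 to 0.15 for Pdk1 and -0.12 to 0.0228 for Pax7. Of 142 named genes that passed, 112 kept their call without any single library. No paired analysis was possible because the labels give no replicate numbers that libraries of different groups share.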
